A study of Arabidopsis thaliana with 11 samples.

Results

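The 6 loci described here encode core subunits of Polycomb repressive complex 2 (PRC2) of Arabidopsis thaliana, among them the genes of the FERTILIZATION INDEPENDENT SEED (FIS) class. They are MEA (AT1G02580), CLF (AT2G23380), SWN (AT4G02020), FIS2 (AT2G35670), FIE (AT3G20740) and MSI1 (AT5G58230). They were chosen by name and not by a rule on measured values, but with earlier results of these data known. Each locus was taken from 3 kb upstream of the gene start to 2 kb past the gene end, and these 6 windows are 6 of 27444 protein-coding nuclear genes in the annotation. Every region that overlapped a window by at least 1 bp was read from 11 lists, 8 of them from single libraries and 3 of them merged.

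The lists come from chromatin immunoprecipitation of inflorescences of ecotype Col0, kept at a day length of 16 h with nights of 8 h. ACD15.5-3XFLAG and ACD21.4-3XFLAG, tagged forms of the alpha-crystallin domain proteins ACD15 and ACD21, were each mapped in 2 libraries of wild type plants in batch 1. MBD6-RFP, a tagged form of a protein with a methyl-CG-binding domain, was mapped in 2 libraries of wild type plants and in 2 libraries of the acd15 acd21 double mutant, all in batch 2. Plants without a transgene served as controls, with 1 FLAG library and 2 RFP libraries, whose peak lists are not used here. The labels give no promoter for the transgenes and do not say whether replicates were separate plants. What differs between FLAG and RFP lists cannot be told apart from batch or from how peaks were called. The lowest -log10 q was 2 in each FLAG list and 1.32 to 1.46 in the RFP lists. Only the FLAG lists held regions with several summits. For every library the labels name anti-FLAG M2 as antibody, although the titles of batch 2 name RFP. The library lists held from 404 regions, in acd15 acd21 replicate 2, to 10946 regions, in ACD15 replicate 2. The 2 lists of each group differed in length, with 5661 regions in ACD15 replicate 1, 6774 and 3571 in the ACD21 replicates, 3492 and 1244 in the wild type replicates of MBD6-RFP, and 3987 in acd15 acd21 replicate 1. In the nuclear genome, the merged lists covered 5.41% of bases for ACD15, 2.66% for ACD21 and 10.5% for MBD5/MBD6, a union of broad peaks of these methyl-CG-binding proteins that has no library of this series as a parent. Read depth is unknown from these lists, and the names of the merged lists or of their parents carry the tag minusCol0. A missing region therefore means only that the list holds no peak there, and peaks may have been removed against the Col0 control.

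PRC2 places methyl groups on lysine residues of histone H3, giving the mark H3K27me3, which keeps developmental genes repressed. Its catalytic subunit in Arabidopsis is MEA, CLF or SWN, which are related to Enhancer of zeste of Drosophila. MEA and FIS2 are expressed from the maternal allele in the endosperm, act in the FIS complex with FIE and MSI1, and are known imprinted genes that depend on the DNA glycosylase DME for their maternal expression. MEA is also known for tandem repeats past its end, called MEA-ISR, which carry DNA methylation. MBD5 and MBD6 are known to bind methylated CG sites, and ACD15 and ACD21 are known to act with them. No DNA methylation was measured in the libraries used here.

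The sequences that the results turn on lie past MEA, upstream of FIS2 and upstream of FIE. All are from RefSeq's TAIR10.1 copy of the genome, written 5′ to 3′ in lower case with every CG site in capitals. The first 3 are copies of the tandem repeat past MEA on the plus strand. Copy 1 at chr1:549653-549834 and copy 6 at chr1:550578-550737 held most of the summits, and copy 2 at chr1:549848-550017 held none.
MEA repeat copy 1: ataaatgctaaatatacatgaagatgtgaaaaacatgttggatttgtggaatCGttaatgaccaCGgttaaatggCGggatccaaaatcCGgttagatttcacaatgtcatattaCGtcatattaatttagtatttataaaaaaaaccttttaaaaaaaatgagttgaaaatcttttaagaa
MEA repeat copy 6: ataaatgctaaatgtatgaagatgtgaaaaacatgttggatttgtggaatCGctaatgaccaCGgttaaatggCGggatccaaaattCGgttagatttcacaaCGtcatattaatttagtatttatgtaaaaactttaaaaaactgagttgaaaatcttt
MEA repeat copy 2: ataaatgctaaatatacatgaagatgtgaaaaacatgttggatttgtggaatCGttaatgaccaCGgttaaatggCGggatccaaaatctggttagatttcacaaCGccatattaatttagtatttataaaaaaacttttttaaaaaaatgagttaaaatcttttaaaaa
Copies 1 and 6 hold 5 CG sites each and copy 2 holds 4. The other sequences are 300 bp around the ACD15 summit upstream of FIS2, at chr2:14991625-14991924 on the plus strand, and 300 bp around the paired ACD15 summits upstream of FIE, at chr3:7254020-7254319 on the minus strand, on which FIE is transcribed.
FIS2 upstream peak: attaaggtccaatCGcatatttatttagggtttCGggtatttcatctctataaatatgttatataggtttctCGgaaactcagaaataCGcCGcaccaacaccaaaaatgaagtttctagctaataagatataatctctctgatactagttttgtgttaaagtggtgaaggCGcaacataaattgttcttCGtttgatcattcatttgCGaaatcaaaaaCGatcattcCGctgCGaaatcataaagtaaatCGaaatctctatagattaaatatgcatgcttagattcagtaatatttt
FIE distal peak: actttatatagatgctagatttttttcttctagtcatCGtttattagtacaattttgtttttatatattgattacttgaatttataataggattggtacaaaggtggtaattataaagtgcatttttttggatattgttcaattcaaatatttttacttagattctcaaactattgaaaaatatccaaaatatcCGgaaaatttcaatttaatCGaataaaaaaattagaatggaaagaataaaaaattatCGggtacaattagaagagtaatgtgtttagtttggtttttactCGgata
The FIS2 stretch holds 12 CG sites, or 4 per 100 bp, and the FIE stretch holds 5, or 1.67 per 100 bp. The nuclear genome as a whole has 2.34 CG sites per 100 bp, so the FIS2 stretch lies above that mean and the FIE stretch below it.

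MEA, FIS2 and FIE held regions of the FLAG and MBD5/MBD6 lists, CLF held a region of a single MBD6-RFP list, and SWN and MSI1 held none in any of the 11 lists. The merged ACD15 list had a region in 3 of the 6 windows, where 37.2% of protein-coding genes had one. The merged ACD21 list had a region in 2 of the 6, MEA and FIE, against 26.4% of protein-coding genes. The MBD5/MBD6 list had a region in the same 3 windows as ACD15, against 45.2% of protein-coding genes. With 6 loci, these counts lie near the shares of all genes and show nothing particular to the 6 genes.

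No regions of the merged lists overlapped a gene of the 6 between its start and its end, where 9.17% of protein-coding genes overlapped the ACD15 list, 5.59% the ACD21 list and 14.9% the MBD5/MBD6 list. Upstream, ACD15 and MBD5/MBD6 had regions at FIS2 and FIE, against 25.3% and 29.8% of genes, and ACD21 had one at FIE, against 17.1%. Past the end, MEA had regions of all 3 merged lists, against 16.7% of genes for ACD15, 10.8% for ACD21 and 21.2% for MBD5/MBD6. In single libraries, ACD15 replicate 1 had regions at MEA and FIE, against 24.6% of genes, and ACD15 replicate 2 at MEA, FIS2 and FIE, against 36.7%. ACD21 replicate 1 had regions at MEA and FIE, against 26.3%, and ACD21 replicate 2 at MEA, against 16.1%. At least 1 FLAG library had a region at 3 of the 6 loci, against 37.9% of genes. Both ACD15 libraries had one at MEA and FIE, against 24.1%, and both ACD21 libraries at MEA, against 16%. MEA was the one locus with a region in all 4 FLAG libraries, which 15.2% of genes had. Neither wild type MBD6-RFP library had a region in any of the 6 windows, where 12.8% of genes had one in replicate 1, 2.96% in replicate 2, 14.7% in either and 1.15% in both.

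**Figure D1:**
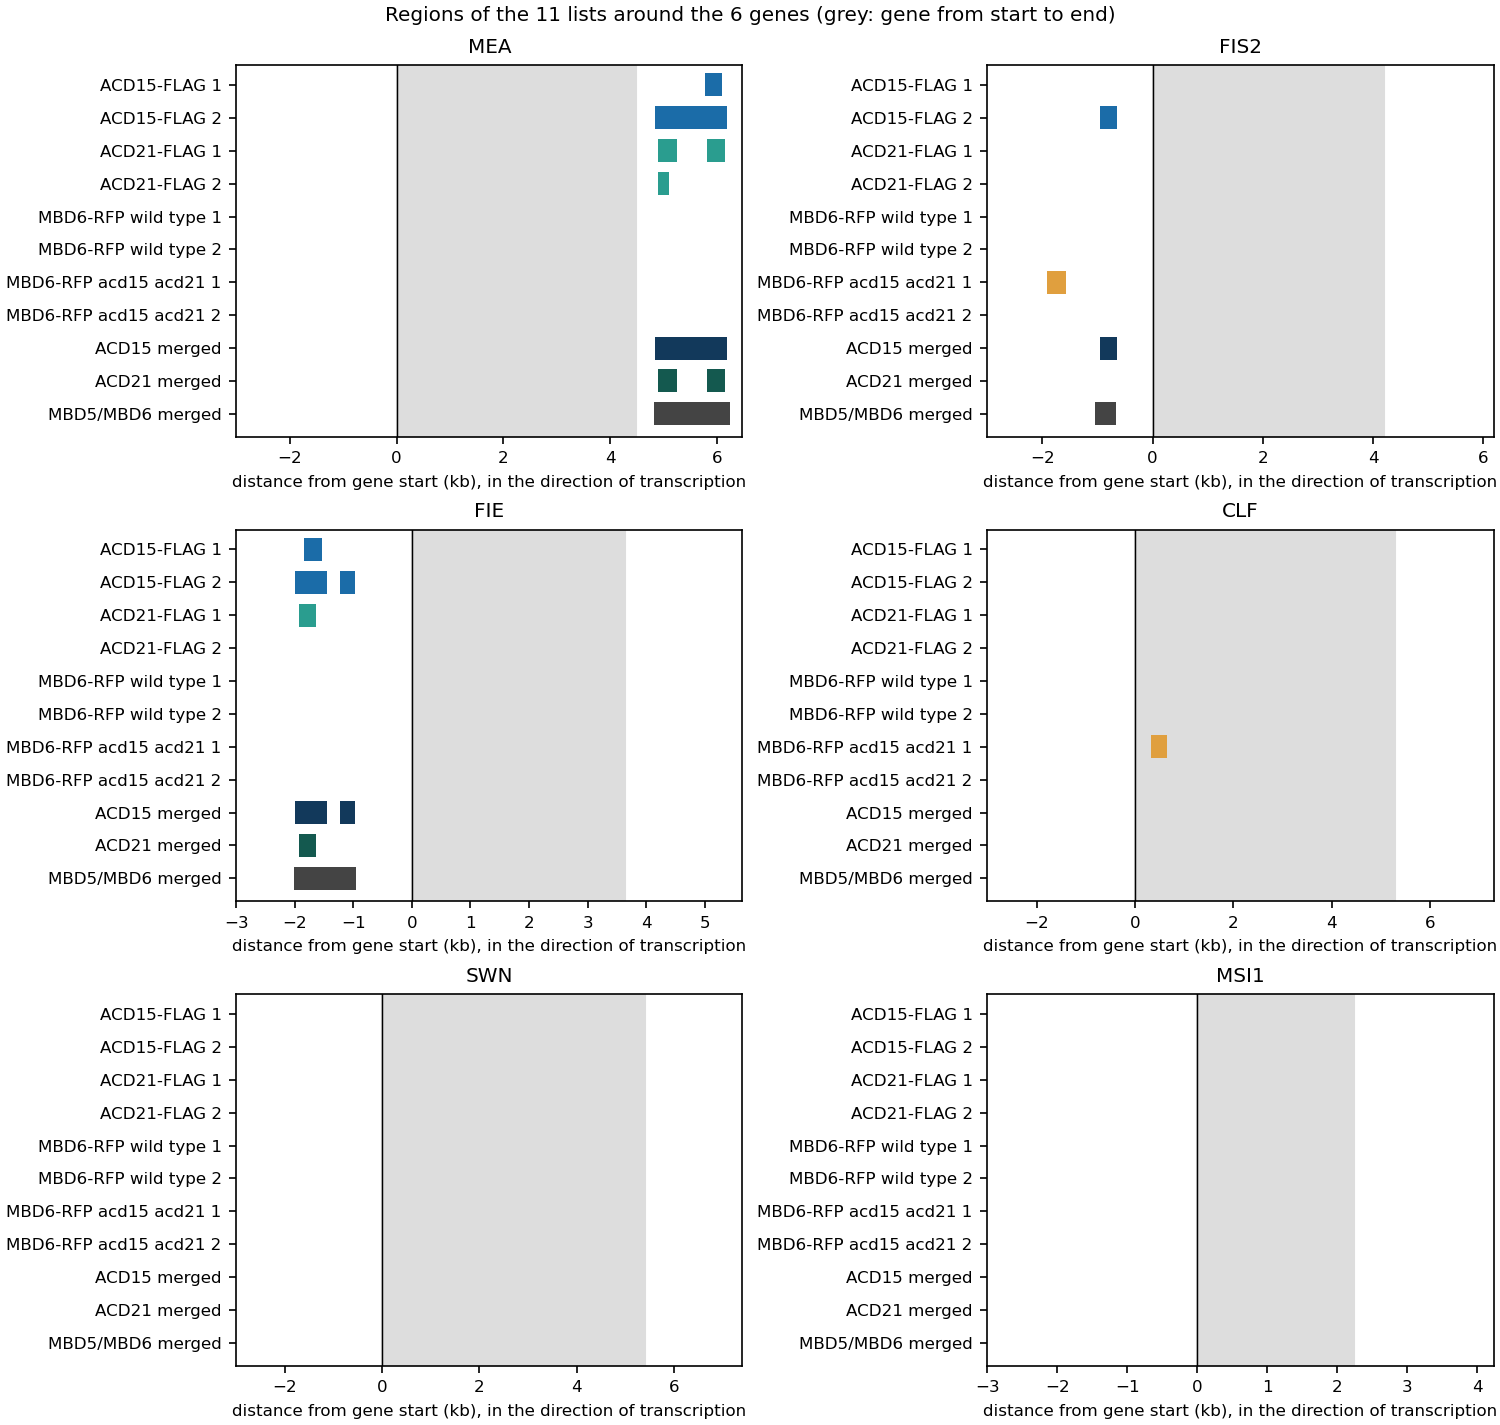
Regions of the 11 lists (rows) in the 6 windows, against the distance from the gene start in kb in the direction of transcription, with the gene body in grey and library replicates numbered 1 and 2. MEA regions lie past the gene end, FIS2 and FIE regions lie upstream, CLF has 1 region just inside the gene, and the panels of SWN and MSI1 are empty.

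MEA, a catalytic subunit of the FIS complex, lies at chr1:544733-549202 on the plus strand, and all its regions lay between genes past its end. ACD15 replicate 1 had a region of 314 bp at chr1:550507-550820, with its summit 1511 bp past the gene end, a fold enrichment of 1.72 and a -log10 q of 3.4. ACD15 replicate 2 had a region of 1362 bp at chr1:549558-550919 with 3 summits, which lay 537, 1067 and 1501 bp past the end with folds of 3.26, 1.85 and 3.13. The first and last of these summits were higher than the one between them. ACD21 replicate 1 had a pair of separate regions, 356 bp at chr1:549623-549978 and 327 bp at chr1:550546-550872, with summits 545 and 1526 bp past the end and folds of 1.97 and 2.38. ACD21 replicate 2 had 217 bp at chr1:549620-549836, with its summit 526 bp past the end and a fold of 2.1. Apart from the middle summit of ACD15 replicate 2, the summits of the 4 lists thus fell at a near position and a far position. ACD15 replicate 1 had only the far one and ACD21 replicate 2 only the near one.

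These peaks were not among the strongest of their lists. The MEA region had a -log10 q above that of 6.96% of regions in ACD15 replicate 1, 62.2% in ACD15 replicate 2 and 31.3% in ACD21 replicate 2. The far region of ACD21 replicate 1 stood above 45.8% of its list and the near one above 19.3%. The MBD5/MBD6 region was the widest there, 1423 bp at chr1:549541-550963, and it was found from both MBD5 and MBD6. It held every FLAG region past MEA within its bounds. The merged ACD21 list kept the gap, with 549620-549978 found in both replicates and 550546-550872 in replicate 1 alone.

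The MEA regions lay on a tandem repeat. Comparison of the 2 kb past the gene with a unit of 182 bp found 7 copies of 143 to 182 bp, in an array of 1239 bp at chr1:549653-550891, 451 to 1689 bp past the gene end. The copies were 86% to 90.7% identical to copy 1. The most frequent spacing between successive occurrences of the same 12 bp in these 2 kb was 182 bp. Of the positions in the ACD15 region, 75.1% began a 12 bp word that occurred again within it, against 0% in the MBD5/MBD6 region upstream of FIS2 and 1.15% in the one upstream of FIE. The array was not dense in CG sites, with 28 of them, or 2.26 per 100 bp, and 3 to 5 per copy.

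All 7 summits in the MEA window fell inside a repeat copy. Copy 1, printed above, held 3 of them, at base 87 for ACD15 replicate 2, base 95 for ACD21 replicate 1 and base 76 for ACD21 replicate 2. Copy 6 held 3, at base 136 for ACD15 replicate 1, base 126 for ACD15 replicate 2 and base 151 for ACD21 replicate 1. Copy 4 held the weak middle summit of ACD15 replicate 2, at base 57. Copies 2, 3, 5 and 7 held none. Summits therefore gathered in copies near both ends of the array, at different bases of the unit. The sources used here do not give how reads that match several copies were placed, and its part in where the summits fell was not tested.

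**Figure D2:**
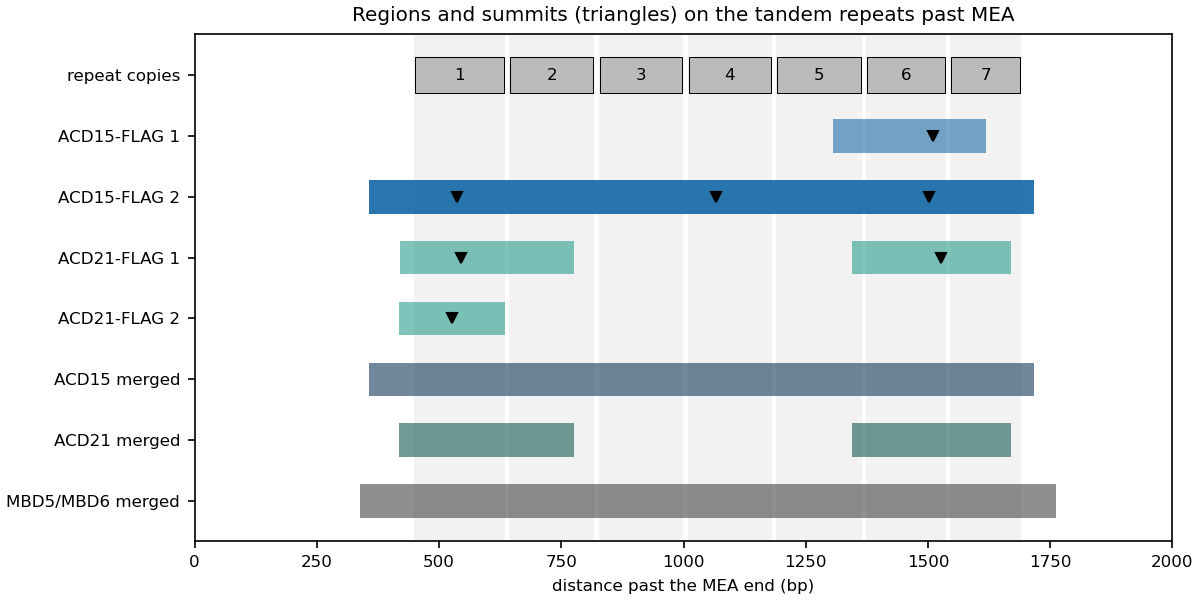
Regions (bars) and summits (triangles) of the FLAG libraries and regions of the merged lists against the distance past the MEA end in bp, with the 7 repeat copies as numbered boxes. Summits lie in copy 1, copy 4 and copy 6, and the MBD5/MBD6 region spans the whole array.

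Copies of the MEA repeat elsewhere in the genome held regions of the same lists. This search was chosen after the MEA sequence had been seen, and the loci share sequence, so they are not independent. A search with the MEA array at an identity of at least 80% over at least 100 bp found 12 other loci, 6 on chromosome 1, 2 on chromosome 2 and 4 on chromosome 5. They spanned 264 to 1578 bp, with a median of 594 bp and a best identity to the array of 81.4% to 90.4%. All 12 lay between 0.423 and 1.29 Mb from the nearest chromosome end, as MEA itself lay 0.55 Mb from one, and 4 of them overlapped a protein-coding gene.

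Every one of the 12 had an MBD5/MBD6 region, where 15.8% of all genome tiles of 594 bp had one. An ACD15 merged region was present at 10 of the 12, or 83.3%, against 10.5% of tiles, and an ACD21 merged region also at 10, against 5.85%. In single libraries ACD15 had regions at 8 and 10 of the 12, against 4.85% and 10.4% of tiles, and ACD21 at 10 and 7, against 5.81% and 2.99%. At 7 of the 12 loci all 4 FLAG libraries had a region. The share of tiles with all 4 was not computed, and it can be at most the 2.99% of ACD21 replicate 2. The shares of loci stood above the tile shares in each single FLAG list and each merged list, as a description without a test. The tiles had a single fixed length and ran over the whole genome, whereas the loci spanned 264 to 1578 bp. A longer span overlaps a region more often, so the tiles are not a matched background. MBD6-RFP had a region at 2 of the 12 in wild type replicate 1, those near CER1 and SCAMP4, against 3.92% of tiles, and at 0 in the other 3 RFP lists, where 1.04%, 3.55% and 0.309% of tiles had one.

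**Figure D3:**
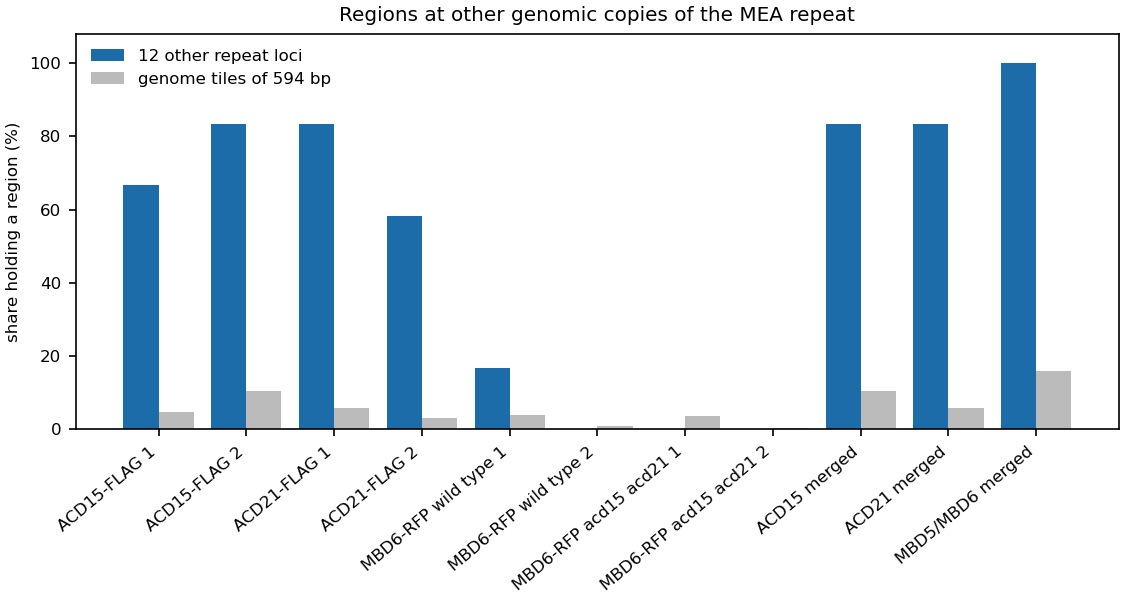
Share of the 12 other repeat loci (blue) and of all genome tiles of 594 bp (grey) that hold a region of each list, in percent. The blue bars reach 58.3% to 100% in the FLAG and merged lists, and 16.7% or 0% in the MBD6-RFP lists.

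Among those of these loci that had a peak, the MEA array was among the lower in fold enrichment. In ACD15 replicate 1 the other loci with a peak ranged from 1.74 to 2.87 with a median of 2.43, and MEA, at 1.72, lay below all 8. In ACD15 replicate 2 they ranged from 2.87 to 5.43 with a median of 4.71, and 8 of 10 lay above the 3.26 of MEA. In ACD21 replicate 1 they ranged from 1.67 to 3.79, and 7 of 10 lay above the 2.38 of MEA. In ACD21 replicate 2, where they ranged from 2.04 to 2.87, 5 of 7 lay above its 2.1. The highest peak of MEA thus stood below the median of the other loci with a peak in every FLAG library, the medians of ACD21 being 2.94 and 2.4. Loci without a peak have no fold and are left out of these medians. How reads that match several copies were placed is not given here either. The part of this placement in these folds, and in the calls at the other loci, was not tested. An example of the other loci is the repeat 520 bp from CER1, a gene of cuticular wax synthesis, with folds of 2.55, 5.06, 3.3 and 2.77 in the FLAG libraries in the same order.

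FIS2, a zinc finger subunit of the FIS complex, lies at chr2:14992565-14996756 on the plus strand. Its ACD15 region was found in replicate 2 alone, 309 bp at chr2:14991609-14991917, with the summit 790 bp upstream of the start, a fold of 2.45 and a -log10 q of 12.6. Both ACD21 libraries and ACD15 replicate 1 had no region there, and the nearest merged ACD21 region lay 28713 bp from the gene. The region thus stood in 1 of 4 FLAG libraries, the one with the longest list. The MBD5/MBD6 region at the same place was 375 bp at chr2:14991526-14991900 and was found from both MBD5 and MBD6. The ACD15 peak, whose sequence is printed above, held 3.88 CG sites per 100 bp, more than 74.9% of its list.

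A separate region lay farther upstream of FIS2. MBD6-RFP in acd15 acd21 replicate 1 had 348 bp at chr2:14990649-14990996, with the summit 1727 bp upstream of FIS2, a fold of 4.21 and a -log10 q of 5.63. This summit lay inside the coding sequence of the neighbour AT2G35658, not between the genes. It held 26 CG sites, or 7.47 per 100 bp, more than 96.9% of its list, and no FLAG or merged list had a region at that place. The 2 kinds of region upstream of FIS2 therefore did not overlap.

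FIE, the WD40 subunit related to extra sex combs of Drosophila, lies at chr3:7248809-7252452 on the minus strand. Its regions lay upstream, between FIE and GATA29, a gene of the GATA zinc finger family. ACD15 replicate 1 had 310 bp at chr3:7253992-7254301 with summits 1639 and 1779 bp upstream and folds of 1.69 and 1.8. ACD15 replicate 2 had 548 bp at chr3:7253896-7254443 with summits 1649 and 1787 bp upstream and folds of 2.65 and 2.79. The paired summits of the ACD15 replicates thus lay within 10 bp of each other.

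ACD15 replicate 2 also had a nearer region of 259 bp at chr3:7253418-7253676, with its summit 1103 bp upstream and a fold of 2.25. ACD21 replicate 1 had 278 bp at chr3:7254094-7254371, with its summit 1654 bp upstream, a fold of 1.59 and a -log10 q of 2.34, above that of only 1.28% of its list. ACD21 replicate 2 had no region in the FIE window. The FIE region of ACD15 replicate 1 was also weak, with a -log10 q of 4.37 at its higher summit, above that of 11.8% of its list, whereas the farther region of ACD15 replicate 2 stood above 51.4%. The MBD5/MBD6 region, 1054 bp at chr3:7253408-7254461 from both proteins, spanned the ACD15 and ACD21 regions. It held 2.18 CG sites per 100 bp, more than 33.1% of its list.

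**Figure D4:**
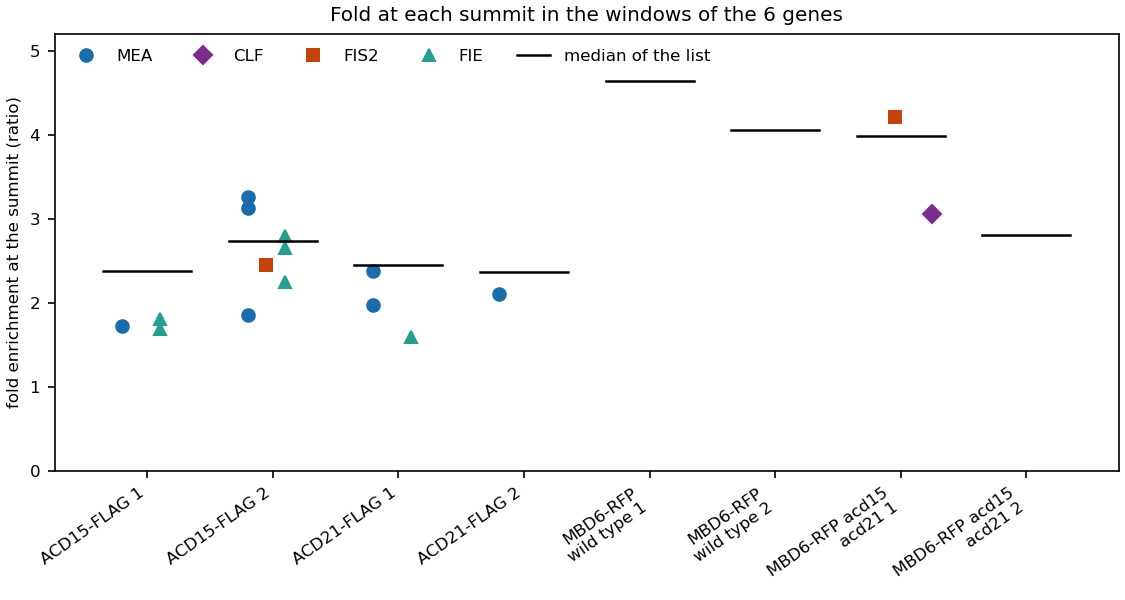
Fold enrichment (ratio) at every summit in the 6 windows by library, with symbols for MEA, CLF, FIS2 and FIE and a line at the median of each library list. In ACD15 replicate 1 and both ACD21 libraries all points lie below the median line, and ACD15 replicate 2 has the highest MEA points, 3.26 and 3.13, above its median of 2.73.

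CLF, a catalytic subunit that acts in vegetative and floral development, lies at chr2:9955092-9960386 on the plus strand. It had 1 region, in MBD6-RFP of acd15 acd21 replicate 1, 334 bp at chr2:9955413-9955746. The summit lay 435 bp into the gene, in an exon outside the coding sequence, with a fold of 3.06 and a -log10 q of 3.68, above that of 10.1% of its list. The region held 17 CG sites, or 5.09 per 100 bp, more than 75.6% of its list. No FLAG, wild type MBD6-RFP or merged list had a region in the CLF window, and the nearest merged ACD15 region lay 5319 bp from the gene.

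CLF and FIS2 were thus the 2 windows with an MBD6-RFP region in acd15 acd21 and none in wild type, a pattern found for 10.7% of protein-coding genes. Both regions came from replicate 1, in whose list 17.8% of genes had a region, and replicate 2 had none at any of the 6 loci, where 1.01% of genes had one. Either mutant library had a region at 18.6% of genes, and both had one at 0.208%. The lists of the 2 mutant libraries differed in length by a wide margin, so these values do not separate the genotypes. With 2 libraries per genotype, the smallest two-sided p that an exact permutation test can give is 0.333, and no test was made.

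SWN, the third catalytic subunit, lies at chr4:886580-891987 on the plus strand, and MSI1, a WD40 subunit that PRC2 shares with other chromatin complexes, lies at chr5:23556012-23558245 on the plus strand. The merged regions nearest to SWN lay 9996 bp from the gene for ACD15, 20941 bp for ACD21 and 9869 bp for MBD5/MBD6. Those nearest to MSI1 lay 9837, 9870 and 9850 bp away. A window without a region of any list was common, since 46.4% of protein-coding genes had none.

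CG content did not order the 6 windows by whether they held a region. The windows of MEA, FIS2, FIE and CLF, which held one, had 2.2, 2.25, 1.98 and 2.35 CG sites per 100 bp, and those of SWN and MSI1, which held none, had 2.13 and 2.34. The FLAG regions of FIE held 2.19 to 2.52 CG sites per 100 bp and those of MEA 2.23 to 3.69, the highest being the near regions of ACD21 with 3.37 and 3.69. The FLAG region of FIS2 held 3.88, and the mutant MBD6-RFP regions of CLF and FIS2 held 5.09 and 7.47. Within their own lists, the FLAG region of FIS2 and the region of CLF stood about equally high, above 74.9% and 75.6% of regions. The lists themselves differed in this measure, with a median of 2.75 to 3.69 CG sites per 100 bp over the 4 FLAG lists, 3.35 and 6.84 in the wild type MBD6-RFP lists and 4.09 and 7.06 in those of acd15 acd21. The part of CG density in these calls was not tested.

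**Figure D5:**
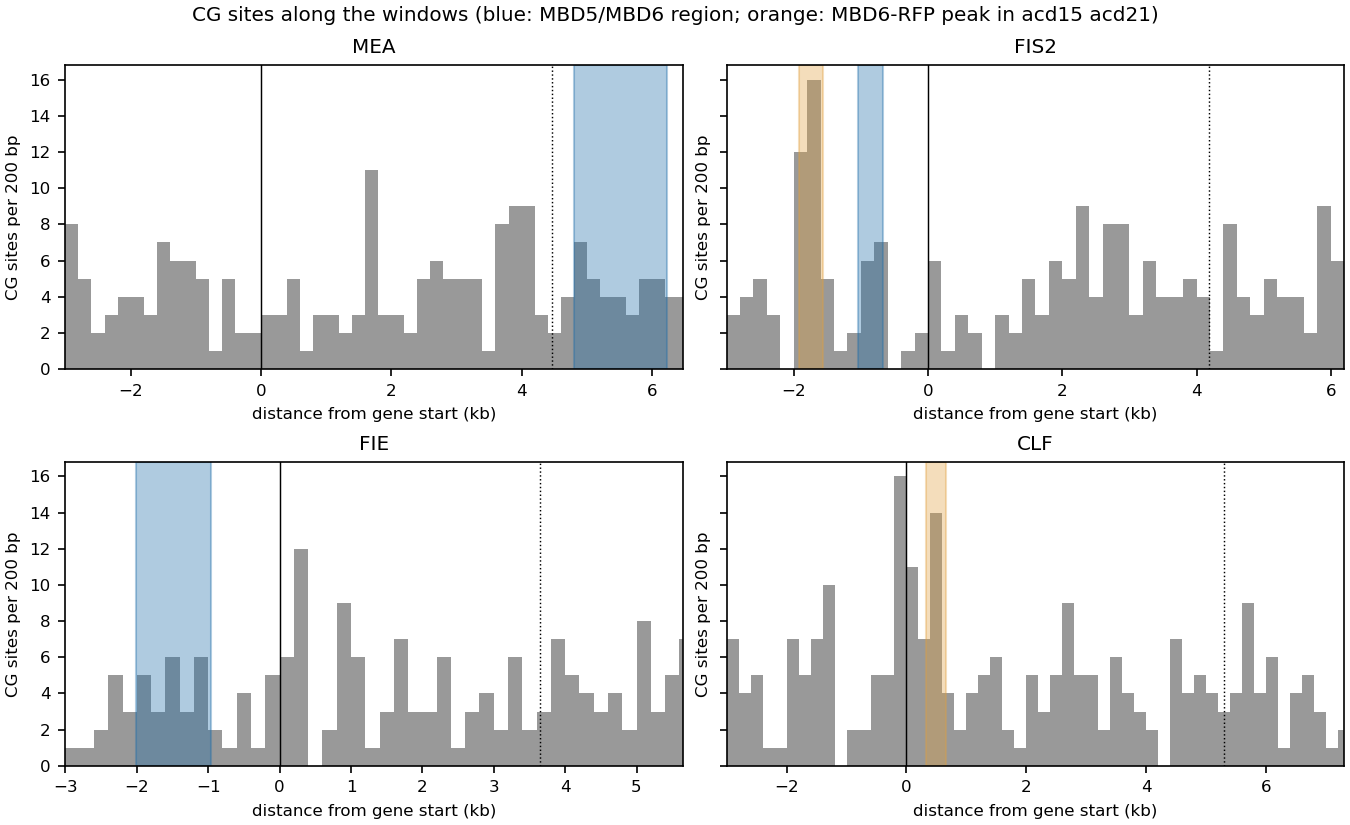
CG sites per 200 bp along the windows of MEA, FIS2, FIE and CLF against the distance from the gene start in kb, with the gene start and end as solid and dotted lines. The MBD6-RFP regions of acd15 acd21 (orange) lie on tall bars at FIS2 and CLF, and the MBD5/MBD6 regions (blue) of MEA, FIS2 and FIE lie on bars of at most 7 sites.

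Other genes of the Polycomb pathway were read in the same windows, from a list of 35 genes by role. An ACD15 merged region was present at 13 of the 35, or 37.1%, an ACD21 merged region at 7, or 20%, and an MBD5/MBD6 region at 17, or 48.6%. The ACD15 and MBD5/MBD6 shares lay near the 37.2% and 45.2% of all protein-coding genes, and the ACD21 share lay below its 26.4%. By role, ACD15 regions were found at 1 of 6 genes listed as further PRC2 subunits, with the MSI1 homologues MSI2, MSI3, MSI4 and MSI5 counted there. They were also found at 1 of 3 accessory proteins, 4 of 7 PRC1 and reader genes, 1 of 5 antagonists and 6 of 14 target genes. Of these 35 genes, 8 had a region in both libraries of at least 1 group, or 22.9%, near the 25% of all protein-coding genes. These 8 are described next because they met that rule.

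MSI4, also known as FVE, a homologue of MSI1 with a role in flowering time, had the highest ACD15 fold of these 8 genes, at its start. Its summits lay 45, 166, 213 and 236 bp upstream in ACD15 replicates 1 and 2 and ACD21 replicates 1 and 2, with folds of 4.25, 7.02, 5.07 and 3.7. Wild type MBD6-RFP replicate 1 had a summit 32 bp into MSI4 with a fold of 1.78. Its -log10 q of 1.69 was below the lowest value of any FLAG list. MSI4 therefore had FLAG regions at its start in all 4 libraries, where its homologue MSI1 had none in its window. VRN5, an accessory protein of PRC2 in vernalization, had summits 131 to 160 bp past its end. Their folds were 3.6 in ACD15 replicate 2 and 2.45 and 2.14 in the ACD21 libraries.

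Among PRC1 genes, RING1A, a ubiquitin ligase subunit, had regions that overlapped the far edge of its window, with every summit outside the window. The summits of the FLAG libraries lay 2078 to 2106 bp past the gene end, with folds of 3.22, 5.73, 3.2 and 2.28. MBD6-RFP reached 13.1 there in wild type replicate 1 and 7.84 in acd15 acd21 replicate 1. RING1B, its paralogue, had ACD15 summits 272 and 280 bp upstream with folds of 1.81 and 3.75. The RING1B window held an MBD5/MBD6 region but none of ACD21 or MBD6-RFP. BMI1A, another PRC1 RING finger protein, had summits 1212 to 1231 bp upstream in all 4 FLAG libraries. Their folds were 3.43, 5.85, 3.25 and 2.46, and further summits lay past the gene end. Every named pathway gene with regions in both ACD15 libraries had its highest ACD15 fold in replicate 2, as did MEA and FIE. That list was also the longer and had the higher median fold, 2.73 against 2.37.

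Of the PRC2 target genes, LEC1, a regulator of embryo development, had summits 1805 to 1827 bp past its end in 6 libraries. The FLAG folds were 3.23, 5.9, 6.42 and 3.93, and MBD6-RFP reached 16.4 in wild type replicate 1 and 4.43 in acd15 acd21 replicate 1. Like MEA, LEC1 had its regions past the gene end, but unlike MEA it had an MBD6-RFP region in wild type. LEC2, another embryo regulator, had summits 1959 to 1992 bp upstream with folds of 2.05 and 3.92 for ACD15 and 1.75 for ACD21 replicate 1. KNAT2, a homeobox gene of the KNOX family, had a region within the gene in all 4 FLAG libraries, with folds of 2.5, 3, 2.69 and 1.98, and a further region past its end, where wild type MBD6-RFP replicate 1 reached 5.21.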

How the data were processed

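Chromatin immunoprecipitation libraries of Arabidopsis inflorescences were read as peak lists. Per the submitters' processing notes, the authors used TAIR10 with Bowtie2, HOMER, MACS2 2.1.0, deepTools 3.0.2, Picard and Trim Galore; the sources used here give no order or settings. Per the labels' protocols, tissue was fixed in 1% formaldehyde and libraries had 15 PCR cycles. The authors deposited, per peak, a score, which is 10 times the -log10 q value, a fold enrichment (ratio), and the -log10 p and -log10 q values. Folds are the peak caller's own values for each peak. Peaks were called on single libraries. Merged lists are, per the file headers, unions of the replicates, or of MBD5 and MBD6 peaks, and the authors deposited with them the count of library entries joined in each region. The names of these lists or of their parents carry the tag minusCol0, and the sources used here do not say how control peaks were removed.

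Entries with the same start and end were joined and the highest value kept. Starts were made 1-based. Chromosome lengths of TAIR10.1 (RefSeq) were checked against all regions. Gene bounds and names came from its annotation. Overlap of at least 1 bp was counted for the 6 loci and for 27444 protein-coding genes. The overlap lookup was tested on simulated data with regions placed inside the windows, which cannot show that the windows or shares are right. Named pathway genes were those of the list of 35 with a region in both libraries of at least 1 group. Repeats were compared with blastn 2.17.0, hits within 500 bp being joined at an e-value of 1e-10 in the genome. The scripts ran in Python 3.11.15. No p-values were computed, since 6 loci are not replicates and depth is unknown. The loci and gene lists were chosen with earlier results of these data known. Alternatives were a shorter window, a stricter peak threshold, at least 50% of the peak or its summit in the window, single replicates and mean values of joined entries.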

Additional observations from a re-analysis of the deposited data

How the results depend on the processing

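The count of loci with an ACD21 merged region, 2 as reported, was 0 with windows from 1 kb upstream to the gene end and 1, MEA, with regions found in both replicates. The count with an acd15 acd21 MBD6-RFP region, 2 as reported, was 1, CLF, in the shorter window and 1, FIS2, at a -log10 q of at least 5. These losses follow from how the alternatives are built, since the MEA regions lie past the gene end, the ACD21 region of FIE and the mutant region of FIS2 lie farther than 1 kb upstream, the ACD21 region of FIE comes from replicate 1 alone and the CLF region has a -log10 q of 3.68. Leaving out each replicate in turn gave 1 to 2 loci for ACD21, the 1 without replicate 1, and 0 to 2 for MBD6-RFP in acd15 acd21, the 0 without replicate 1. It gave 2 to 3 for ACD15, the 2 without replicate 2, which alone holds the FIS2 region. The ACD15, MBD5/MBD6 and any-FLAG counts were 2 or 3 under each alternative run for them, but the loci behind them changed. In the shorter window all of these counts lost MEA and kept FIS2 and FIE. The ACD15 count with regions found in both replicates, and the any-FLAG count without ACD15 replicate 2, lost FIS2 and kept MEA and FIE. The wild type MBD6-RFP count stayed at 0. With the mean in place of the highest of the joined entries, the MEA fold in ACD15 replicate 2 was 2.75 in place of 3.26. Alternatives for the MEA repeat search were chosen after seeing the data. With hits of at least 300 bp, 9 of 10 other loci had an ACD15 merged region. With an identity of at least 85% it was 11 of 12, and with hits joined over 100 bp 10 of 12. The 12 loci at 85% are not the same 12 as reported, since the locus with a best identity of 81.4%, which had no ACD15 region, drops out there. All loci of these alternatives had an MBD5/MBD6 region. Without replicate 2 the ACD15 share was 66.7% in place of 83.3%. No paired analysis was possible because peak lists hold calls without counts and no test was made. Depth is unknown, so an uncalled region cannot be read as absence of the protein.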
